A study of Mus musculus with 5 samples.

Results

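The AP-1 and EGR immediate early factors were taken as the 10 genes Fos, Fosb, Fosl2, Jun, Junb, Jund, Egr1, Egr2, Egr3 and Atf3, found by gene name among the 31626 genes of the deposited tables. Each of the 10 had a single row. Their mRNA was read by RNA sequencing in 5 libraries from C57Bl/6 mouse common myeloid progenitors, which are early blood cells committed to the myeloid lineages. The Mll1 knockout group had 2 libraries from Mll1 -/- cells at day 7 after transduction with Cre, and the Mll1 control group had 3 libraries from Mll1 flox/flox cells at day 7 after transduction with a control. The cells of both groups had been transformed with MN1, a transcriptional cofactor overexpressed in some myeloid leukaemias, from the retroviral vector MSCV-MN1-IRES-GFP. Both were grown in M3234 medium with serum (FBS), IL3, IL6 and SCF and were sorted at day 7. Effects of Cre itself and of losing Mll1 cannot be told apart, since Cre-treated cells with wild type Mll1 were not analysed here. Whether the libraries of a group stem from separate mice or cultures is not said in the labels; each p-value below therefore reflects only how much these libraries vary, which may be technical.

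AP-1 is a family of dimeric transcription factors in which FOS proteins (Fos, Fosb, Fosl2) pair with JUN proteins (Jun, Junb, Jund) through a leucine zipper, and Atf3 is a stress-induced relative that pairs with JUN proteins. The EGR proteins bind GC-rich sites with zinc fingers. Most of these genes are immediate early genes: MAP kinases, SRF with its ternary complex factors, and CREB switch them on within minutes of a growth factor, cytokine or stress signal, which includes the stress of isolating cells, and their mRNAs decay quickly. In the myeloid lineage, mouse Egr1 and Egr2 are linked to macrophage differentiation, and Junb restrains the growth of myeloid progenitors.

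The values are FPKM, in which fragments are divided by the length of the gene and the size of the library, so levels can be compared between genes. The absolute depth is unknown, because no counts are held in the tables. Mll1, the deleted gene, which encodes a histone H3 lysine methyltransferase, stood at 6.22 and 5.32 FPKM in the knockout libraries, against 9.67, 7.28 and 7.19 FPKM in the controls (limma adjusted p = 0.158), and the labels do not say which exons are floxed. The progenitor markers Cd34 and Kit were present in all 5 libraries, at 216 and 212 FPKM for Cd34 in the knockout libraries, against 685, 600.3 and 587 FPKM in the controls. Control replicate 1 stood apart from the other controls before any test. The 9 mature neutrophil markers found summed to 22400 and 20670 FPKM in the knockout libraries, against 6395, 787 and 1049 FPKM in control replicates 1, 2 and 3; Mmp9 was near 0 throughout, and the other 8 passed the filter. S100a8 and S100a9 made up most of each knockout sum, at 11790 and 10990 FPKM for S100a8, against 3129, 347 and 485 FPKM in the controls. Ngp went another way, at 64.7 and 58.3 FPKM in the knockouts, against 106, 4.05 and 4.52 FPKM in the controls, and Camp and Ltf were likewise highest in control replicate 1, while Mmp8 was lowest there. With limma 1 of the 8 rose (Lcn2), while without control replicate 1, 7 rose and 1 fell (Mmp8). Over all genes tested 3.82% rose and 5.97% fell, and 11.9% and 18% without control replicate 1. Results that rest on control replicate 1 are therefore given with and without it, and fewer cells of a type and less RNA per cell cannot be told apart in such bulk samples. The 10 monocyte and macrophage markers summed to 57.1 and 59.4 FPKM in the knockouts, against 113, 71.0 and 57.5 FPKM in control replicates 1, 2 and 3. Of the 6 tested, Irf8 (limma adjusted p = 0.00765) and Ccr2 (adjusted p = 0.00852) fell, Cd14 and Fcgr1 lay above every control without being called, and Emr1, at 52.6 FPKM in control replicate 1, was the main source of that library's higher sum. Irf8, at 0.778 and 0.826 FPKM in the knockouts, passed the filter (1 FPKM in at least 2 libraries) only through the controls, where it was high. Cd14 and Fcgr1 were called higher once control replicate 1 was left out (limma adjusted p = 0.00504 and 0.038). Among progenitor markers Cd34 fell (limma adjusted p = 0.00657) and Mpo and Gata2 rose. Kit, Cebpa and Myb lay below every control without being called (limma adjusted p = 0.266, 0.154 and 0.33). Of 7 erythroid markers tested, Gata1, Klf1 and Alas2 rose, though Alas2 would not have passed the filter without the knockouts. The list summed to 169 and 177 FPKM in the knockouts, against 142, 142 and 140.3 FPKM in the controls. Tfrc, not called (limma adjusted p = 0.24), held most of each sum, at 127.5 and 137.7 FPKM in the knockouts. Its control values were 93.6, 118.3 and 118.4 FPKM. The haemoglobin genes Hbb-b1 and Hba-a1 were highest in control replicate 1 and were not called. The fit without control replicate 1 called 5 of the 7 higher. Mast cell and basophil markers summed to 1145 and 1169 FPKM in the knockouts, against 529, 797 and 712 FPKM in the controls, and Mcpt8 rose. Cpa3 rose as well once control replicate 1 was left out (limma adjusted p = 0.00993). Megakaryocyte markers summed to 46.6 and 38.8 FPKM in the knockouts, against 89.7, 70.6 and 57.8 FPKM in the controls, and Itgb3 fell. Lymphoid markers summed to 5.42 and 4.33 FPKM in the knockouts, against 53.0, 51.15 and 36.4 FPKM in the controls; Thy1, which held nearly all of that sum, fell, and Cd8a was at 0 in every library. The part of these markers in the results below was not tested.

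Upstream sequence of 6 of the genes is shown because Fos, Fosb, Jun, Jund and Atf3 were each low in control replicate 1 as well as in the knockouts, while Junb was not low in the knockouts. RefSeq promoter windows (build GRCm38.p6) were found for 8 of the 10 genes, Egr1 and Egr3 being without one, and the 150 bases before each start were searched on both strands. Capitals mark TGACG, the core of the cyclic AMP response element, and TGACATCA, the AP-1 variant known from the Jun promoter; the sequences are those of the gene's own strand, written 5′ to 3′, and a match on the other strand is capitalised as its reverse complement, CGTCA in Atf3.
Fos (chr12:85473740-85473889, plus strand): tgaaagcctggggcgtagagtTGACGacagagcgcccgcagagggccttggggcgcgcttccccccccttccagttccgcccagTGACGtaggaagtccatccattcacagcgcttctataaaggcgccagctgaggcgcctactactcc
Fosb (chr7:19310046-19310195, minus strand): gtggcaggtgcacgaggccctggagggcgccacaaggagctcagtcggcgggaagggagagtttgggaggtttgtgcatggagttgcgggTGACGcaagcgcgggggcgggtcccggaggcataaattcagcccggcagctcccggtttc
Jun (chr4:95052223-95052372, minus strand): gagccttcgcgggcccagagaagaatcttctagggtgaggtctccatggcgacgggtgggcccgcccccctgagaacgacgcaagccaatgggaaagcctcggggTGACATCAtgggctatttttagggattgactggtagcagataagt
Jund (chr8:70697589-70697738, plus strand): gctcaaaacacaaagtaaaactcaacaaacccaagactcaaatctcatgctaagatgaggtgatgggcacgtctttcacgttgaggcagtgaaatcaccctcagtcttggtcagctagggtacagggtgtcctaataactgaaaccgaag
Atf3 (chr1:191183334-191183483, minus strand): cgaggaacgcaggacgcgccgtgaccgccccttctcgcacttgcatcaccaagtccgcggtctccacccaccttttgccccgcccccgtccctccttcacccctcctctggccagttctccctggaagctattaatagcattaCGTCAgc
Junb (chr8:84978749-84978898, minus strand): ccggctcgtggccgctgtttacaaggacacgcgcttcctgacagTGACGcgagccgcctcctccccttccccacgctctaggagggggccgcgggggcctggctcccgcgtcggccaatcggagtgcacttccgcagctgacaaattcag

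The core TGACG stood in windows of 5 of the 8 genes, Fos (at 2 places), Fosb, Junb, Atf3 and Egr2, against 13.3% of all 32851 promoter windows of that length. The count is of genes and the share is of windows. Egr2 had 5 windows and was counted if any of them held the core. TGACATCA stood in that of Jun, against 2.32% of all windows. The full element TGACGTCA (1.36% of all windows) and the AP-1 site TGANTCA (4.24%) were in none of the 8; the full element contains the core. The EGR site GCGNGGGCG stood in the windows of Fosb and Fosl2 (3.81% of all windows), and the CArG box bound by SRF in 4 of the 5 windows of Egr2 (0.916% of all windows). These windows of Egr2 are not independent, since some overlap and hold the same copy of the box. A match is a description of letters and says nothing of binding in these cells, and Junb, whose values went another way, holds the core as well, while the window of Jund, which was low in the same libraries as Jun, holds none of the motifs searched.

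Among the FOS genes, Fos and Fosb were far lower in both knockout libraries than in control replicates 2 and 3, and control replicate 1 was as low as the knockouts. Fos, the founding FOS subunit, stood at 2.65 and 26.0 FPKM in knockout replicates 1 and 2, against 12.6, 96.5 and 108 FPKM in control replicates 1, 2 and 3. Control replicate 1 thus lay between the knockout values, and the groups overlapped. On the log2(FPKM + 1) scale the log2 change (knockout minus control) was -2.40 (limma 95% interval -5.66 to 0.86, adjusted p = 0.274), and the knockout values themselves lay 9.81-fold apart. Fosb, the FOS subunit most similar to Fos, stood at 3.31 and 11.0 FPKM in the knockouts, against 3.08, 70.5 and 45.6 FPKM in the controls. Control replicate 1 held the lowest of the 5 values, and the log2 change was -1.73 (limma interval -5.17 to 1.71, adjusted p = 0.443). Fosl2, the subunit also called Fra-2, followed neither, at 4.202 and 3.69 FPKM in the knockouts, against 6.61, 3.995 and 4.44 FPKM in the controls. Here control replicate 1 was the highest, the groups overlapped, and the interval of the log2 change ran from -0.79 to 0.27 (limma adjusted p = 0.456).

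**Figure D1:**
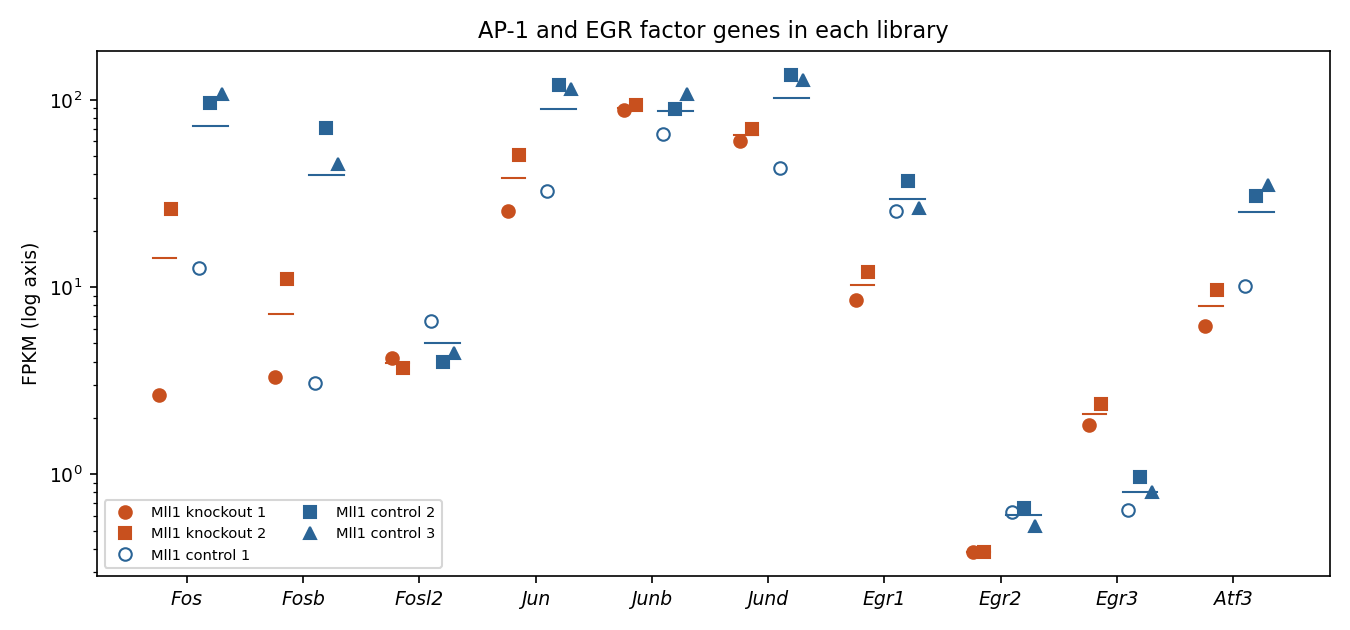
FPKM (log axis) of each of the 10 genes in each library, with Mll1 knockout libraries in orange left of Mll1 controls in blue, control replicate 1 as an open circle and group means as lines. For Fos, Fosb, Jun and Jund the open circle sits at or near the knockout points, while for Egr1 and Egr3 all 3 controls lie on one side of both knockouts.

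Among the JUN genes, Jun and Jund had the same arrangement and Junb did not. Jun, the main partner of FOS proteins, stood at 25.5 and 51.0 FPKM in the knockouts, against 32.6, 120.1 and 115 FPKM in control replicates 1, 2 and 3. Control replicate 1 again lay between the knockouts, and the log2 change was -1.07 (limma interval -2.77 to 0.63, adjusted p = 0.34). Jund, a JUN subunit that most cells express steadily, stood at 60.0 and 69.5 FPKM in the knockouts, against 43.3, 136.5 and 127 FPKM in the controls. Both knockouts lay above control replicate 1 and below the other controls, with a log2 change of -0.49 (limma interval -1.85 to 0.87, adjusted p = 0.585). Junb, which opposes Jun in many cells, stood at 88.5 and 93.6 FPKM in the knockouts, against 65.4, 89.2 and 107 FPKM in the controls. The knockouts lay within the control range, with a log2 change of 0.088 (limma interval -0.46 to 0.64, adjusted p = 0.819), which was -0.10 without control replicate 1. In GENCODE M21, Jun, Junb, Jund and Atf3 each overlap a gene on the opposite strand, and whether strand was used in the counting is not given in the sources used here. Prdx2, the partner of Junb, stood at 195 and 191 FPKM in the knockouts, against 206, 236 and 216 FPKM in the controls, so its reads may enter the values of Junb. Gm11175, the partner of Jund, stood at 0.00043 and 3.51 FPKM in the knockouts, against 4.56, 0.563 and 25.75 FPKM in the controls. Reads of Gm11175 may likewise enter the values of Jund. The partners of Jun and Atf3 were not among the deposited genes.

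The makeup of the summed mRNA of these FOS and JUN members differed with these values. Fosl1, a FOS gene outside the set of 10, is not in the sums. It stood at 8.89 and 10.4 FPKM in the knockouts, against 7.87, 8.99 and 13.2 FPKM in the controls, so the shares below hold only among the members. Fos, Fosb and Fosl2 together summed to 10.2 and 40.7 FPKM in the knockouts, against 22.3, 171 and 158 FPKM in control replicates 1, 2 and 3. Fosl2 made up 41.4% and 9.07% of that sum in the knockouts, against 29.7%, 2.34% and 2.81% in the controls. Jun, Junb and Jund together summed to 174 and 214 FPKM in the knockouts, against 141, 346 and 349 FPKM in the controls. Junb held the largest share of the JUN sum in both knockouts, 50.9% and 43.7%, and in control replicate 1, 46.3%, but 25.8% and 30.7% in control replicates 2 and 3, where Jund held the largest. These sums were described and not tested.

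**Figure D2:**
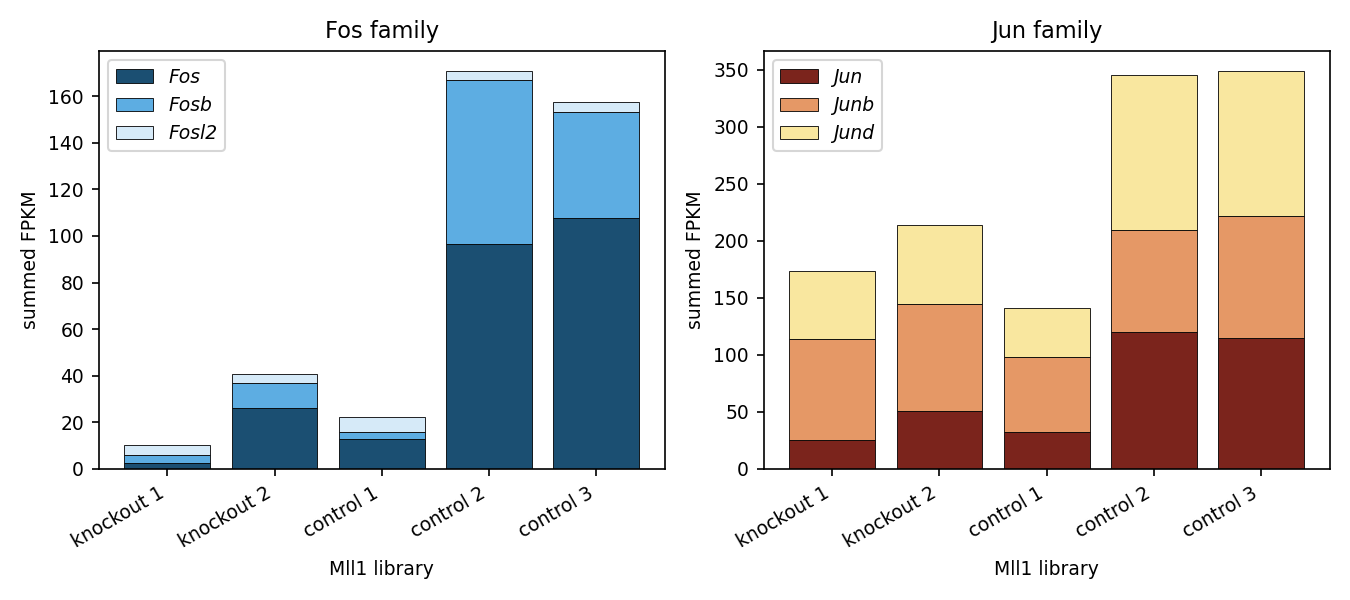
Stacked bars of FPKM summed over Fos, Fosb and Fosl2 (left) and over Jun, Junb and Jund (right) in each library. The FOS sum is 10.2 and 40.7 FPKM in the knockouts, against 22.3 FPKM in control replicate 1 and 171 and 158 FPKM in control replicates 2 and 3.

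Of the genes tested here, 2 EGR genes passed the test between the groups, in opposite directions. Egr1, a growth-factor-induced zinc finger factor, fell to 8.48 and 12.01 FPKM in the knockouts, against 25.5, 36.9 and 26.4 FPKM in the controls. Both knockouts lay below every control, the mean was 2.89-fold lower in the knockouts (10.25 ± 2.49 FPKM, SD, n = 2, against 29.6 ± 6.33 FPKM, SD, n = 3), and the log2 change was -1.44 (SE 0.22, limma interval -2.003 to -0.88, adjusted p = 0.0261). Egr3, a close relative that mouse studies place in lymphocyte and muscle spindle development, rose to 1.83 and 2.39 FPKM in the knockouts, against 0.645, 0.971 and 0.804 FPKM in the controls. All 3 control values were under 1 FPKM, so Egr3 passed the filter on low values (1 FPKM in at least 2 libraries) only through the knockouts, where it was high, and its call depends on that entry. Both knockouts lay above every control, the mean was 2.62-fold higher (2.11 ± 0.391 FPKM, SD, n = 2, against 0.807 ± 0.163 FPKM, SD, n = 3), and the log2 change was 0.78 (SE 0.16, limma interval 0.37 to 1.19, adjusted p = 0.0472). Egr1 remained by far the more abundant, but Egr3 made up 17.1% and 16.1% of the summed EGR FPKM in the knockouts, against 2.41%, 2.52% and 2.90% in the controls. Egr2, known for hindbrain and Schwann cell development in the mouse, stood at 0.386 and 0.386 FPKM in the knockouts, against 0.628, 0.662 and 0.532 FPKM in the controls. It was below the filter on low values in every library; its knockout values lay under every control, and with no filter its log2 change was -0.21 (limma interval -0.37 to -0.054, adjusted p = 0.157).

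Control replicate 1 sat with the other controls for Egr1 and Egr3, and without it the limma adjusted p was 0.0202 for Egr1 and 0.0322 for Egr3. Both calls needed the remaining libraries. For Egr1 the limma adjusted p was 0.0684 when control replicate 2 was left out, 0.0789 when control replicate 3 was, 0.209 when knockout replicate 1 was and 0.168 when knockout replicate 2 was. For Egr3 it was 0.101, 0.111, 0.245 and 0.343 in the same order. With no filter on low values neither was called (adjusted p = 0.066 for Egr1 and 0.0869 for Egr3). Egr3 was also low enough for the added constant to matter: with a pseudocount of 0.1 in place of 1 its log2 change was 1.29 and its limma adjusted p 0.0555. By exact permutation (two-sided) p was 0.1 for Egr1, Egr2 and Egr3, which is the smallest value the 10 possible splits allow.

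Atf3, which many stresses induce, stood at 6.21 and 9.60 FPKM in the knockouts, against 10.1, 30.6 and 35.2 FPKM in control replicates 1, 2 and 3. Both knockouts lay below every control, though knockout replicate 2 was close to control replicate 1. The log2 change was -1.42 (limma interval -2.85 to 0.022), and Atf3 did not pass the test (adjusted p = 0.173).

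Across the 10 genes, 9 had at least 1 FPKM in at least 2 libraries and were tested; Egr2 was the exception. Since Egr3 entered through its knockout values alone and Egr2, low in the knockouts, did not enter, the filter shaped the counts that follow. Of these 9, 1 rose (Egr3) and 1 fell (Egr1), against 3.82% and 5.97% of the 11780 genes tested, or 9.79% in either direction. Over all genes this was 450 higher and 703 lower, and 592 higher and 604 lower with median-ratio scaling. Knockout values above every control were found in 1 of the 9 (Egr3), against 22.9% of genes tested, and values below every control in 2 (Egr1 and Atf3), against 29.4%. Either way, 52.4% of all genes tested lay outside the control range, so these counts were not above those of genes at large. The median log2 change of the 9 was -1.07, and that of all genes tested was -0.028. The order of mean levels in the knockouts was Junb, Jund, Jun, Fos, Egr1, Atf3, Fosb, Fosl2, Egr3, Egr2. In the controls it was Jund, Jun, Junb, Fos, Fosb, Egr1, Atf3, Fosl2, Egr3, Egr2. Compared within each library, some neighbours in that order changed places: in the knockouts Fos and Egr1, Atf3 and Fosb, and Fosb and Fosl2, and in the controls Jun and Junb, Junb and Fos, Fosb and Egr1, and Egr1 and Atf3. The other neighbours kept one order in every library of the group, which was not tested.

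For most of these genes control replicate 1 stood below the other controls. In 8 of the 9 genes tested it was the lowest control, against 49.3% of all genes tested, and in 5 (Fos, Fosb, Jun, Jund and Atf3) it lay at least 1 log2 unit below the mean of control replicates 2 and 3, against 1.97% of all genes tested. None of the 9 was that far above it, against 3.04% of all genes tested. The difference was -2.92 for Fos, -3.82 for Fosb, -1.82 for Jun, -1.58 for Jund and -1.61 for Atf3. Control replicates 2 and 3 lay close together, with a median gap of 0.16 log2 units over the 9 genes, against 0.11 over all genes tested. The knockouts were less even: knockout replicate 1 was below knockout replicate 2 in 8 of the 9 genes, against 54.6% of all genes tested, and Fos and Fosb differed between them by at least 1 log2 unit, against 1.99% of all genes tested.

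**Figure D3:**
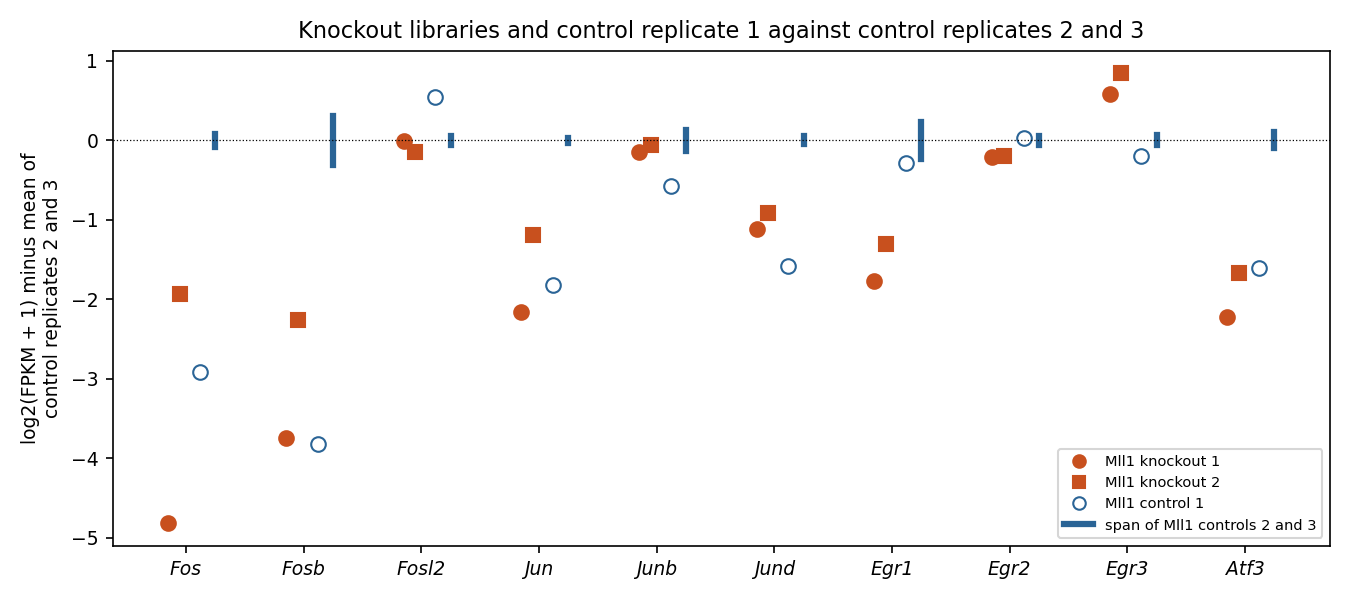
Each library's log2(FPKM + 1) minus the mean of control replicates 2 and 3, for knockout libraries (orange) and control replicate 1 (open blue circle), with the span of control replicates 2 and 3 as a blue bar. Control replicate 1 lies between the knockouts for Fos and Jun, just below the lower knockout for Fosb, just above the higher one for Atf3, below both for Jund, and near 0 for Egr1 and Egr2.

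Without control replicate 1, 5 of the 9 genes fell and 1 rose. Genes called lower were Fosb (log2 change -3.002, limma adjusted p = 0.0299), Jun (-1.67, adjusted p = 0.0363), Jund (-1.02, adjusted p = 0.00851), Atf3 (-1.95, adjusted p = 0.0111) and Egr1 (-1.54), and the gene called higher was Egr3 (0.72). In that fit 18% of all genes tested were called lower and 11.9% higher, so the background of calls was higher too. Fosb, Jun, Jund and Atf3 had already been seen to be low in control replicate 1, so leaving it out had to lower their log2 changes. Their added calls are a description and no separate support. Fos had the largest log2 change of the 9, -3.37, but its knockouts lay too far apart for the test (limma interval -6.21 to -0.54, adjusted p = 0.0776). Both knockout values lay below control replicates 2 and 3 in 6 of the 9 genes, against 42.7% of all genes tested. Fosl2 (adjusted p = 0.591) and Junb (adjusted p = 0.495) were not called, with intervals of -0.35 to 0.20 and -0.40 to 0.19.

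**Figure D4:**
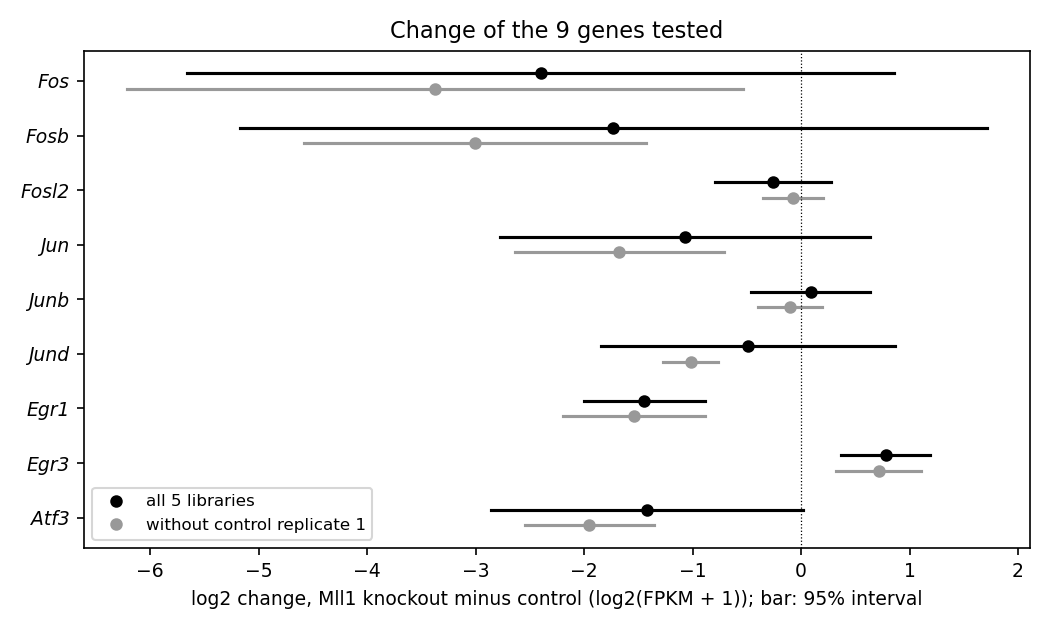
Change of log2(FPKM + 1) between Mll1 knockout and control (positive: higher in the knockout) for the 9 genes tested, with limma 95% intervals, from all 5 libraries (black) and without control replicate 1 (grey). Egr1 (-1.44 and -1.54) and Egr3 (0.78 and 0.72) were called in both fits, which Egr3 entered only through its knockout values. The intervals of Fos, Fosb, Jun, Jund and Atf3 reach 0 only with control replicate 1.

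The genes whose profiles over the 5 libraries lay nearest to those of 3 members were named by the root mean square distance of centred log2(FPKM + 1) values, as a description. For Fos they were mmu-mir-678 (distance 0.445), Fosb (0.689), Klf2 (0.699) and Klf4 (0.881). The first is a hairpin row inside the gene Prmt2 and was listed at practically 0 FPKM in knockout replicate 1. Klf2, a Krüppel-like factor gene of quiescent cells, stood at 10.5 and 33.0 FPKM in the knockouts, against 23.4, 88.2 and 90.2 FPKM in the controls. For Egr1 they were Clybl (0.0935), Lat2 (0.124), Itgb5 (0.138) and Stc2 (0.141), and for Egr3 Cotl1 (0.0709), Daglb (0.0786), Bmpr1a (0.0827) and Gorasp1 (0.084). Lat2, an adaptor of immune receptors, stood at 37.5 and 41.8 FPKM in the knockouts, against 89.6, 136 and 110 FPKM in the controls. No other member was among the 4 nearest to Egr1 or Egr3.

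The regulators of these genes were looked at from lists of pathway genes. Of 25 MAP kinase cascade genes tested, 2 rose and 2 fell (median log2 change 0.10); without control replicate 1, 5 rose and 3 fell. Over all genes tested 3.82% rose and 5.97% fell, and 11.9% and 18% without control replicate 1, and the counts of this list and of those below are to be read against these shares. Rps6ka1, a ribosomal S6 kinase gene downstream of ERK, rose to 94.995 and 98.6 FPKM in the knockouts, against 61.1, 62.3 and 62.9 FPKM in the controls (limma adjusted p = 0.0146), and Rps6ka2 rose as well (adjusted p = 0.042). Map2k6, a p38 kinase kinase gene, fell to 3.76 and 4.58 FPKM, against 7.85, 9.85 and 9.19 FPKM in the controls (limma adjusted p = 0.023). Mapk8, which encodes the JUN kinase JNK1, fell to 21.6 and 22.3 FPKM, against 29.45, 29.1 and 34.1 FPKM in the controls (limma adjusted p = 0.0472). Mapk3, a kinase gene of the same cascades, was not called (limma adjusted p = 0.969), at 66.4 and 65.8 FPKM in the knockouts, against 67.3, 66.4 and 63.9 FPKM in the controls.

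Of the 5 genes of SRF and its cofactors tested, 1 fell and none rose, with a median log2 change of 0.038; without control replicate 1, 1 fell and 2 rose. Elk3, a ternary complex factor known as a repressor in the absence of Ras signalling, fell to 18.0 and 16.4 FPKM in the knockouts, against 31.1, 44.1 and 43.5 FPKM in the controls (log2 change -1.14, limma adjusted p = 0.0269). Srf itself stood at 51.6 and 51.2 FPKM in the knockouts, against 26.4, 35.8 and 38.4 FPKM in the controls, with the groups apart but not called (limma adjusted p = 0.0848). Elk1, another ternary complex factor, stood at 4.37 and 4.39 FPKM in the knockouts, against 2.045, 2.91 and 2.57 FPKM in the controls (limma adjusted p = 0.0571).

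Of 3 EGR relatives and corepressors tested, 1 fell and none rose, with a median log2 change of 0.016, and Egr4 was below the filter; the same counts held without control replicate 1. Wt1, whose zinc fingers resemble those of EGR proteins and recognise a similar site, fell to 0.902 and 0.419 FPKM in the knockouts, against 10.6, 7.66 and 8.09 FPKM in the controls (log2 change -2.56, limma adjusted p = 0.00808). Both knockout values were under 1 FPKM, so Wt1 passed the filter only through the controls, where it was high, and its call depends on that entry. Nab2, an EGR corepressor gene that EGR proteins induce, stood at 25.9 and 19.4 FPKM in the knockouts, against 13.7, 20.5 and 19.4 FPKM in the controls (limma adjusted p = 0.359), and Nab1 was not called either (adjusted p = 0.918).

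Of 14 AP-1 and CREB relatives tested, limma called 0 in either direction (median log2 change -0.068). An unadjusted p under 0.05 was found for 3, Maff, Atf7 and Atf6, all lower. Such p-values were common among all genes. With failed estimates as missing values, a fit close to this one, 2043 genes were lower and 1473 higher at that level. Maff, a small MAF factor gene, came nearest by p, at 8.88 and 8.80 FPKM in the knockouts, against 11.4, 15.2 and 18.3 FPKM in the controls (limma adjusted p = 0.0922). Without control replicate 1, 2 rose (Batf and Mafg) and 4 fell (Maff, Atf6, Atf4 and Atf5). Fosl1, the FOS gene outside the set of 10, stood at 8.89 and 10.4 FPKM in the knockouts, against 7.87, 8.99 and 13.2 FPKM in the controls (limma adjusted p = 0.959).

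Of 37 other immediate early and handling-induced genes tested, 1 rose and 1 fell, with a median log2 change of -0.27; without control replicate 1, 2 rose and 11 fell, against 11.9% and 18% of all genes tested. Cebpb, a C/EBP factor gene of granulocytes and monocytes, rose to 34.9 and 37.0 FPKM in the knockouts, against 20.2, 20.9 and 24.7 FPKM in the controls (log2 change 0.69, limma adjusted p = 0.0287). Ppp1r15a, also called Gadd34, which ends the integrated stress response, fell to 34.0 and 38.7 FPKM, against 59.7, 93.3 and 80.0 FPKM in the controls (log2 change -1.05, limma adjusted p = 0.0417). Gadd45a had the next smallest p, at 47.6 and 54.5 FPKM in the knockouts, against 23.9, 30.3 and 35.3 FPKM in the controls (limma adjusted p = 0.0601). Control replicate 1 was the lowest control in 26 of the 37, against 49.3% of all genes tested. It lay at least 1 log2 unit below the mean of the other controls in 9, against 1.97% of all genes tested. The list was chosen with earlier results of these data known, so these counts are a description. Control replicate 1 was not low in all of its genes. Myc, for one, stood at 17.6 and 18.5 FPKM in the knockouts, against 50.9, 19.8 and 26.7 FPKM in control replicates 1, 2 and 3. Whether handling of the cells had a part in these values was not tested.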

How the data were processed

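The authors deposited 1 FPKM table per library (31626 Ensembl genes; 5 libraries). Per the submitters' processing notes, CASAVA 1.8.2, GSNAP, SAMtools and Cuffdiff were used with the build mm9; the sources used here do not give the annotation, strand use or handling of multi-mapped reads. Absolute depth is unknown. Relative to control replicate 1, the worth of 1 read, read as the commonest ratio in genes under 2 FPKM, was 0.979 to 1.02. In 16 genes a library held 999999999, treated as a failed estimate, and they were left out.

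The 11780 genes reaching 1 FPKM in 2 or more libraries were tested with limma 3.58.1 (R 4.3.3). The scale was log2(FPKM + 1), the variance prior followed mean expression, and p-values had Benjamini-Hochberg adjustment over all genes tested, at an adjusted p under 0.05. This scale understates changes of low genes. The test was checked on simulated data. Members and lists were chosen with earlier results of these data known. Besides the members, genes were named as the 4 nearest profiles of Fos, Egr1 and Egr3, and in each pathway list those called and the 3 with the smallest p; Fosl1, Mapk3, Myc and the relatives called without control replicate 1 were named after their values were seen. A single row was found for 41 of 46 immediate early genes and 5 of 6 SRF genes; the others were not used here. Alternatives covered pseudocount, filter, scaling, empirical Bayes settings, replicate block, each library left out, threshold, failed estimates and shared symbols. Counts in lists without control replicate 1 were added after seeing the data.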

Additional observations from a re-analysis of the deposited data

How the results depend on the processing

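Of the 142 values of single members under the alternatives, 123 kept their direction and side of the threshold, 13 were no longer called, 5 became called and 1 changed direction (Junb, -0.10 without control replicate 1; -0.10 to 0.25 over libraries left out in turn). All 13 that were no longer called were values of Egr1 or Egr3, the only members called at first. Most of the 123 belong to members that were not called at first. With limma, 450 genes rose and 703 fell. Leaving out 1 library gave 0 to 1398 and 0 to 2118, the lowest without knockout replicate 2 (639 and 1030 at an unadjusted p under 0.05) and the highest without control replicate 1. Members called ranged from 0 to 1 higher and 0 to 5 lower, and members under the control range from 2 to 6. With no filter, 238 genes rose and 259 fell, and 0 members were called in either direction (1 higher and 2 lower at an unadjusted p under 0.05). At an adjusted p under 0.01 the counts were 34 and 55, with 0 members either way, and at 0.1 they were 1021 and 1414. Members called higher were 0 with a pseudocount of 0.1 (1 at an unadjusted p under 0.05) and also 0 when a 5 FPKM mean was required (0 at an unadjusted p under 0.05), where Egr3 was not tested. After quantile normalization 1 member lay under the control range. The median difference of control replicate 1 over the members was -1.58, and -1.33 with a pseudocount of 5. The median change of all genes was 0.015 with median-ratio and 0.0066 with quantile scaling, and -0.028 without.

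The labels do not tie replicate numbers together, and deviations of same-numbered libraries correlated at 0.037 and 0.0123 across genes. With the replicate block, in which control replicate 3 has no partner and adds nothing, 12 genes rose and 43 fell, 0 members rose (1 at an unadjusted p under 0.05), and Fos was the member called lower (-1.88, limma adjusted p = 0.0374), while Egr1 had an adjusted p of 0.0549 and Egr3 of 0.163. Precision is limited by the number of libraries and the unknown depth.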
